A study of Mus musculus with 16 samples.

Results

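A set of 14565 CpGs was unmethylated in one parental line of immortalised mouse embryonic fibroblasts (MEFs) and partially methylated in the other. These CpGs had at least 20 reads in both parental libraries, a methylation level under 10% in the MEF-2 parental line and a level from 40 to under 90% in the MEF-1 parental line, where the level is the percentage of reads called methylated. They were 14565 of the 1203687 CpGs in the series table, and of the 1062454 that had at least 20 reads in both parental libraries. The CpGs were thus chosen by the methylation levels of the parental libraries, which are given only as a description. The results rest on the 14 clonal lines, whose methylation levels did not enter these limits. The lines were grown from the same parental cultures, and the set was chosen with earlier results of these data known. Single CpGs named below for their family difference were picked by clonal levels, so their p-values are not independent of that choice.

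Target capture bisulfite sequencing (tcBS-seq), in which chosen regions are pulled down with probes and unmethylated cytosines are then converted, had been carried out on 16 libraries. MEF-1 and MEF-2 came from sibling C57BL/6J embryos at E13.5, MEF-1 from a male and MEF-2 from a female, and both cultures were immortalised by serial passaging. The labels name no genetic change or treatment in either. Each clonal line was grown from 1 sorted cell, and 7 lines were derived from each parental line. Each parental line was sequenced once, and each family comes from 1 embryo and 1 culture, so that embryo, sex, culture and immortalisation cannot be told apart between the families. Chromosomes 12, 18, 19, X and Y were not analysed here.

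In mammals, DNA methylation is placed on the cytosine of CpG dinucleotides, and after replication the maintenance methyltransferase copies it to the new strand, so that a state can be passed on through cell divisions. CpG islands at promoters are mostly kept free of methylation, and genes of embryonic patterning often lie in such islands under Polycomb. A single CpG in a diploid cell can be methylated on neither copy, on a single copy or on both, so a clone that copied its founder without error would show a level near 0, 50 or 100%.

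Where the selected CpGs lay next to each other without interruption, their sequences show how densely they were packed. The 4 stretches with most of them are printed from the + strand of GRCm38 (also named mm10), with every selected CpG in capitals. The first holds 16 of the 21 CpGs of its stretch, since the part in the 5′ untranslated region is not shown, and it begins at the start codon of Traip. The second lies in an exon of the noncoding transcript AI506816, the third in an exon of Pax8 and the fourth in no annotated gene, 49435 bp upstream of Hnrnpa3.
Traip, chr9:107951075-107951300: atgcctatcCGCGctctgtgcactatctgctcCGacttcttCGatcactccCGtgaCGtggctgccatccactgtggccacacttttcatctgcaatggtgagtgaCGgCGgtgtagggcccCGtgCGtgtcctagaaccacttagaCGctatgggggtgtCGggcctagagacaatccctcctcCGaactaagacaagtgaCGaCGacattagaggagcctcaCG
AI506816, chr5:23712621-23712716: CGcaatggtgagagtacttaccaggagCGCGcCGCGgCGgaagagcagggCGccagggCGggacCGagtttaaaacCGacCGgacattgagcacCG
Pax8, chr2:24474067-24474206: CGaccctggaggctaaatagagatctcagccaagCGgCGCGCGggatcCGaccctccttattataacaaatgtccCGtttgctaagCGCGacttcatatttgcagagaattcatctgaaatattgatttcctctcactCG
Intergenic, chromosome 2, chr2:75609633-75609826: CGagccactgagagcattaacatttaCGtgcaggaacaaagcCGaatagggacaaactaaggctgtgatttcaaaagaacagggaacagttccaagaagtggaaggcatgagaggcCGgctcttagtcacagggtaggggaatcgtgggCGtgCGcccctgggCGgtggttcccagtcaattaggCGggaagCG
In the first 3 sequences every CpG printed belonged to the set. In the fourth 9 of 10 did, and the remaining CpG is in lower case.

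The total of methylation calls per library ranged from 59243669 to 90633091, and the median coverage at the selected CpGs was between 28 and 41 reads in the clonal lines. At these CpGs, read sampling alone gives a median binomial SD of 8.54 points in MEF-1. Reads that are PCR copies are not independent molecules, so intervals and limits given here cover counting error only. Of the 5 fibroblast marker promoters measured, those of Vim and Twist2 were under 10% in both families, Col1a1 was at 9.37% in MEF-1 against 19.1% in MEF-2, Pdgfra was at 32.0% and 2.81%, and Thy1 was at 94.9% and 94.7%. Promoters of 6 genes of epithelium, blood, endothelium and pluripotent cells lay between 10.3 and 84.7%. These are methylation levels, and expression was not analysed here.

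The difference between the parental lines was carried by the clonal lines of both families. The 7 MEF-1 clonal lines had a mean level over the 14565 CpGs of 50.7% ± 2.11 (SD, n = 7), with a lowest line of 48.6%, a median line of 49.4% and a highest line of 53.3%. The 7 MEF-2 clonal lines had a mean level of 7.54% ± 0.421 (SD, n = 7), from 6.77 to 7.97%. No MEF-1 line lay near any MEF-2 line. The parental means, fixed by the selection, were 54.4% in MEF-1 against 4.85% in MEF-2.

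The clonal lines of MEF-1 did not resolve into unmethylated and fully methylated lines at most of these sites. Levels from 10 to under 90% made up 87.3% ± 3.52 of the calls in a MEF-1 line (SD, n = 7), and 45.6% ± 1.89 lay from 40 to under 60%. A further 21.7% ± 0.8996 lay from 10 to under 40%, 19.999% ± 2.78 from 60 to under 90%, 7.51% ± 0.523 at 90% or more and 5.19% ± 3.47 under 10%. If every one of these CpGs had a true level of 50%, read sampling at the observed coverage would place between 73.0 and 79.4% of calls from 40 to 60% in the 7 lines, against the 44.4 to 49.6% observed. In the MEF-2 lines, 81.4% ± 1.35 of calls stayed under 10% (SD, n = 7), 13.2% ± 2.20 lay from 10 to under 40%, and 4.40% ± 1.011 from 40 to under 60%. Levels of 60% or more were rare in MEF-2, with 0.938% ± 0.319 from 60 to under 90% and 0.133% ± 0.060 at 90% or more.

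**Figure D1:**
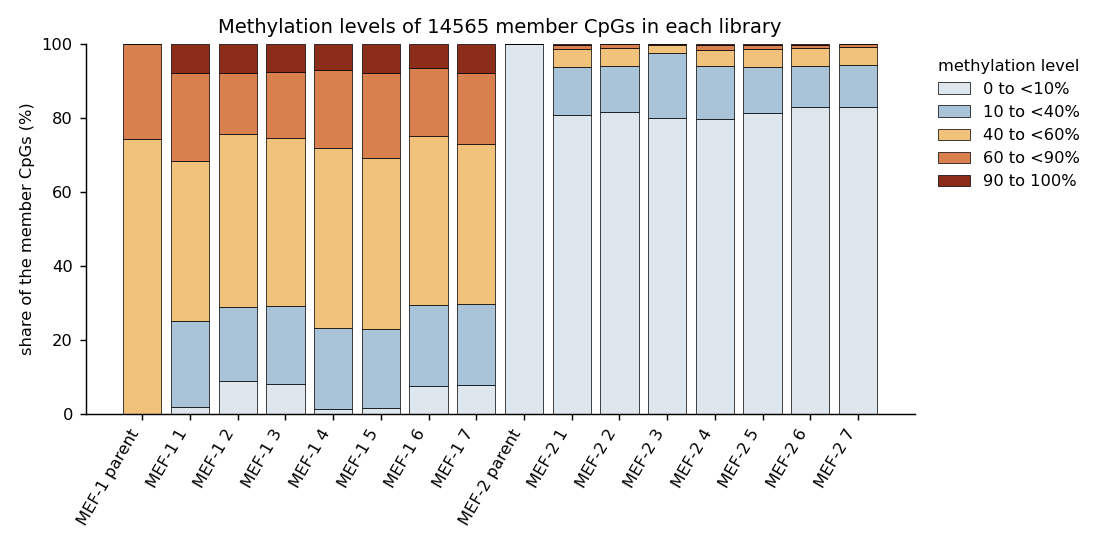
Share of the 14565 selected CpGs in each of 5 ranges of methylation level (stacked bars, percent, from 0 to 100) in the 16 libraries, each bar being 1 library. The parental bars are fixed by the selection, the MEF-1 clonal lines hold mostly levels from 10 to under 90%, and the MEF-2 clonal lines hold mostly levels under 10%.

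Calls of 0 to 10, 40 to 60 or 90 to 100%, which a faithful copy of 1 founder cell would give, made up 59.5% ± 3.38 of the calls at these CpGs in MEF-1 lines and 86.6% ± 2.04 in MEF-2 lines (SD, n = 7 each). Over all 1062454 CpGs with 20 or more parental reads, the shares were 83.7% and 82.8%. CpGs partial in both parents had a share of 59.95% in MEF-1, and CpGs under 10% in both parents one of 96.3% in MEF-2. The selected sites in MEF-1 were thus near other partial sites, and in MEF-2 they lay between all sites and sites unmethylated in both families. No test was made of these differences.

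Site by site, the families differed at most of the selected CpGs. A quasi-binomial F-test of methylated and unmethylated counts between the 7 MEF-1 and the 7 MEF-2 clonal lines, with Benjamini-Hochberg adjustment over all 1203687 CpGs, called 12170 of the 14565 (83.6%) at an adjusted p under 0.05, against 20.2% of all CpGs. Of these, 12168 were higher in MEF-1 (83.5% of the set, against 11.6% of all CpGs) and 2 were higher in MEF-2, a direction called at 8.53% of all CpGs. The mean difference of the family means was 43.1 points, with quartiles of 33.7 and 50.0 points. In 7955 CpGs (54.6%) every MEF-1 line lay above every MEF-2 line, a pattern found at 5.19% of all CpGs. The family mean was higher in MEF-1 at 14512 CpGs (99.6%), including those that did not pass the test. The opposite set held 12915 CpGs, unmethylated in the MEF-1 parent and partial in the MEF-2 parent. There, 85.9% were called higher in MEF-2, and every MEF-2 line lay above every MEF-1 line at 56.7%. Such shares are thus not particular to the selected CpGs. The lines of a family share a parental culture, so these p-values measure only the spread between such lines.

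The 2 CpGs called higher in MEF-2 went against the parental lines. One lay in an intron of Spata16, a gene of sperm development, and is described with the CpGs of lowest difference. The other, named after its values were seen, lay in an intron of Kbtbd12 at chr6:88567180. It was at 0 to 15.4% in the MEF-1 lines with a median of 8.57%, and at 0 to 60% in the MEF-2 lines with a median of 36.4% (adjusted p = 0.0370, quasi-binomial F-test). The ranges of the families overlapped at both CpGs.

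The lines of a family within fixed limits of level were counted at each site. All 7 MEF-2 lines were under 10% at 5472 CpGs (37.6%), and 6 of 7 at a further 4007 (27.5%). No MEF-1 line was under 10% at 11426 CpGs (78.4%), and all 7 were from 10 to under 90% at 8757 (60.1%). A level from 40 to 60% in all 7 MEF-1 lines was found at 374 CpGs (2.57%). Levels of 40% or more in all MEF-1 lines together with under 10% in all MEF-2 lines were found at 1197 CpGs (8.22%). These counts, and those of departing lines below, were made for the selected set only. No share over all CpGs stands beside them, so they are not read as high or low. Read sampling alone also breaks the agreement of 7 lines at such limits. At a true level of 50%, it would place 73.0 to 79.4% of the calls of a MEF-1 line from 40 to 60%. In the MEF-2 parent, 7301 of the selected CpGs were from 5 to under 10%, near the limit of 10%.

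Lines that departed from the family state were counted as well. Levels of 40% or more made up 5.47% ± 1.32 of the calls in a MEF-2 line at the selected CpGs (SD, n = 7). At CpGs under 10% in both parents they made up 0.894% ± 0.205 in MEF-2. In the opposite set they made up 4.25% ± 2.26 of the calls in a MEF-1 line. No test was made between these shares. At least 1 MEF-2 line reached 40% at 4044 CpGs (27.8%), which was exactly 1 line at 2949 (20.2%) and 4 or more lines at 93. At these 2949 CpGs, the line concerned was line 3 in 147 cases and each of the other 6 lines in 379 to 526. MEF-2 line 3 also had 2.14% of its calls from 40 to under 60%, against 4.45 to 5.02% in the other 6 lines, and 17.5% from 10 to under 40%, against 11.1 to 14.3%. Over all CpGs with 20 or more parental reads, the share from 10 to under 40% was 11.0% in line 3. It was 7.85 to 8.75% in the other MEF-2 lines, so this trait is not particular to the set. In MEF-1, a line at 90% or more was found at 2886 CpGs (19.8%), which was exactly 1 line at 1249, and a line under 10% at 3139 (21.6%), exactly 1 line at 1883. Both extremes at once were found at 217 CpGs (1.49%), and 189 were at 90% or more in all 7 MEF-1 lines.

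The MEF-1 lines were not equally alike at these sites. Lines 1, 4 and 5 were under 10% at 1.88, 1.26 and 1.41% of the selected CpGs, whereas lines 2, 3, 6 and 7 were under 10% at 8.80, 7.90, 7.35 and 7.77%. At CpGs partial in both parents, lines 1, 4 and 5 were under 10% at 0.759, 0.525 and 0.553%. Lines 2, 3, 6 and 7 were there at 2.74, 2.42, 2.10 and 2.34%, so the split is not particular to the set. Over the 14565 CpGs, the levels of lines 1, 4 and 5 correlated with each other at Pearson r between 0.556 and 0.583, and those of lines 2, 3 and 7 at 0.556 to 0.594, while the other 15 pairs of MEF-1 lines were between 0.361 and 0.423. These correlations are across CpGs, which are not independent replicates and share coverage and sequence context, and no p is given. In MEF-2 all pairs were between 0.130 and 0.336, the highest being among lines 2, 3, 4 and 7 (0.197 to 0.336). Without MEF-1 lines 1, 4 and 5, the MEF-1 mean was 49.0% and 66.2% of the CpGs were called between families, against 14.1% of all CpGs.

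The spread among the lines of a family was set against read sampling. A chi-square test of equal levels in the 7 lines, adjusted over all CpGs, called 7275 of the selected CpGs in MEF-1 (49.9%, against 27.6% of all CpGs) and 6807 in MEF-2 (46.7%, against 36.8%). The median SD over the MEF-1 lines was 14.2 points, where binomial sampling alone gives 8.54. In MEF-2 it was 5.47 points against 3.75. The 111603 CpGs that were from 40 to under 90% in both parents had a median SD of 14.6 points in MEF-1, against 7.64 from sampling, and 59.0% of them were called. The test counts any variation beyond binomial read noise, technical or not. Divided by the median inflation over all CpGs, it called 36.5% of the selected CpGs in MEF-1 (19.3% of all CpGs) and 37.3% in MEF-2 (27.2% of all). Both shares depend on the depth, since with every library thinned to 10 reads per CpG they were 12.98% in MEF-1 (7.38% of all CpGs) and 22.2% in MEF-2 (14.9% of all).

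The clonal level went with the level of the parent, which is given as a description. Selected CpGs at 40 to under 50% in the MEF-1 parental line (6247) were at 43.7% ± 1.96 in the MEF-1 clonal lines (SD, n = 7), those at 50 to under 60% (4567) at 48.4% ± 1.68, and those at 60 to under 70% (1882) at 54.3% ± 2.13. The 936 CpGs at 70 to under 80% in the parent were at 67.9% ± 4.00 and the 933 at 80 to under 90% were at 83.4% ± 3.61. The share of MEF-1 calls at 90% or more was 1.36% in the lowest of these ranges and 55.9% in the highest. The MEF-2 clonal means stayed between 7.03 and 8.47% across the same ranges. The MEF-2 lines in turn were at 5.09% ± 0.308 where the MEF-2 parent had no methylated read (2295 CpGs), and at 9.10% ± 0.495 where it was from 5 to under 10% (7301 CpGs).

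**Figure D2:**
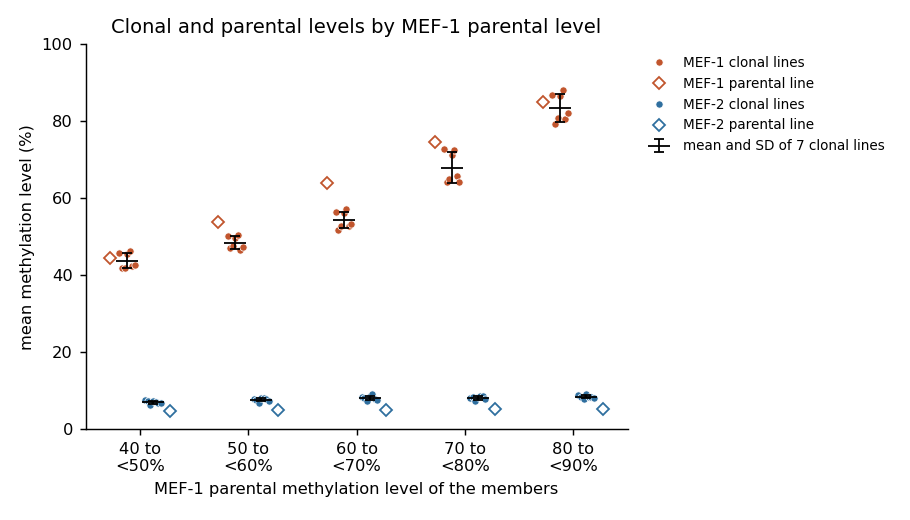
Mean methylation level (%, y axis) of the selected CpGs in 5 ranges of the MEF-1 parental level (x axis). Filled points are single clonal lines, bars the mean and SD of 7 lines, and open diamonds the parental lines, whose levels chose the CpGs. The MEF-1 clonal mean goes from 43.7% to 83.4%, and the MEF-2 clonal mean stays between 7.03 and 8.47%.

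Sites just inside and just outside the limits used for the choice are given for description. CpGs at 8 to under 10% in the MEF-2 parent (3033, inside the limit) were at 10.2% in the MEF-2 clonal lines, and those at 10 to under 12% (2983, outside) at 11.8%. Those at 40 to under 42% in the MEF-1 parent (1510, inside) were at 41.995% in the MEF-1 clonal lines and those at 38 to under 40% (1176, outside) at 39.96%. At the upper limit, 198 CpGs just inside were at 87.7% and 221 just outside at 90.2%.

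The selected CpGs stood in sequence of intermediate CpG density. CpG density, the number of other CpGs within 100 bp counted up to 30, had a mean of 5.19 at these sites. It was 10.9 at the 360038 CpGs under 10% in both parents, 3.84 at those partial in both parents, and 6.67 over all CpGs with 20 or more parental reads. The opposite set, unmethylated in the MEF-1 parent and partial in the MEF-2 parent, held 12915 CpGs at a mean density of 4.93. Of the sites with a density of 0 to 2, 1.55% belonged to the set, of those at 3 to 5 1.64%, of those at 6 to 9 1.45%, and of those at 10 or more 0.797%.

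Among the selected CpGs, calls of a spread among the MEF-1 lines were fewer at high density, where coverage was also lower, while the mean level was near the same. The MEF-1 clonal mean was 50.3% ± 2.72 at a density of 0 to 2 and 50.4% ± 1.15 at 10 or more (SD, n = 7 each). The share with a called spread among MEF-1 lines was 58.3%, 51.4%, 42.9% and 37.2% from the sparsest to the densest range, against 35.4%, 32.9%, 26.2% and 15.04% of all CpGs in the same ranges and 59.5%, 59.7%, 58.2% and 54.04% of those partial in both parents. The fall was thus also present over all CpGs, and was smaller at those partial in both parents. In the same order, the share of MEF-1 calls from 40 to 60% was 43.2%, 47.3%, 49.2% and 49.8%. The median coverage in the MEF-1 lines was 35, 34, 31 and 27 reads in the same order, and the part of coverage in these shares was not tested. The median SD over the MEF-1 lines was 15.1 points at a density of 0 to 2, where read sampling gives 8.07, and 13.501 points at 10 or more, where it gives 9.61. Calls of a difference between the families were near equal, from 82.7 to 84.3%, while over all CpGs 16.5%, 14.5%, 10.4% and 4.40% were called higher in MEF-1. No test was made across the density ranges.

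A part of the selected CpGs lay at promoters, but most did not. The 1000 bp before a coding transcript start held 2917 (20.03%), exons 1941 (13.3%), introns 4424 (30.4%), and 5283 (36.3%) lay outside genes. Over all CpGs with 20 or more parental reads, the shares were 21.7%, 14.8%, 33.7% and 29.8%. The promoter share was 42.7% at CpGs under 10% in both parents and 8.74% at CpGs partial in both. The median distance to a coding transcript start was 2541 bp, against 362 bp and 11094 bp in those same sets. Repeat-masked sequence held 4.74% of the selected CpGs and 4.34% of all with 20 or more parental reads, and an A or T on both sides of the CpG was found at 21.5% and 20.8%.

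The set was spread over all 16 chromosomes of the table. It took from 1.04% of the CpGs with 20 or more parental reads on chromosome 16 to 1.66% on chromosome 2. Between 77.0% (chromosome 16) and 85.5% (chromosome 1) of the selected CpGs of a chromosome were called higher in MEF-1.

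Of all CpGs with 20 or more parental reads, 1.37% belonged to the set. Selected CpGs had a nearest neighbour in the set more often than that, but most did not. Of 14097 with another CpG of 20 or more parental reads within 200 bp, the nearest was also in the set for 2350 (16.7%). It was under 10% in both parents for 2805 (19.9%), under 10% in MEF-2 with 10 to under 40% in MEF-1 for 2120 (15.04%), and from 40 to under 90% in MEF-1 with 10 to under 40% in MEF-2 for 1834 (13.01%). The nearest CpG was higher in the MEF-1 parent by 20 points or more for 6244 (44.3%). These shares of other kinds of neighbour have no share over all CpGs beside them and are not read as high or low. The 11747 nearest CpGs outside the set, at a median distance of 21 bp, were at 38.2% in MEF-1 against 23.7% in MEF-2 clonal lines, and 31.4% of them were called higher in MEF-1 (11.6% of all CpGs) and 5.30% higher in MEF-2 (8.53% of all CpGs).

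A smaller part of the set formed runs, which were defined as at least 3 of these CpGs in a row with gaps of at most 200 bp and no other CpG of 20 or more parental reads between them. There were 243 runs with 899 CpGs (6.17% of the set), of which 172 had 3 CpGs, 37 had 4 and 34 had 5 or more. Their median span was 48 bp and the longest was 300 bp. The opposite set formed 180 runs with 645 CpGs (4.99%), the largest with 11 CpGs. Of the 243 runs, 121 lay within 1000 bp of a coding start and 77 more than 5000 bp from one.

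The CpGs in runs had more calls between the families than those outside. They were called higher in MEF-1 at 94.2%, against 82.8% outside runs, and 90.4% of their MEF-2 calls were under 10%, against 80.8%. A spread among MEF-1 lines was called at 36.0%, against 50.9%. The median coverage in the MEF-1 lines was 34 reads in runs and 32 outside. Runs were denser, with a mean CpG density of 8.496 against 4.97, and no test was made between the groups. In 203 runs every CpG was called higher in MEF-1, and in 228 runs the mean of every MEF-1 line lay above that of every MEF-2 line. The share of all CpGs called higher in MEF-1 was 11.6%, and 27.6% had a called spread among MEF-1 lines. Every MEF-1 line lay above every MEF-2 line at 5.19% of all CpGs. Over the whole set, these shares were 83.5%, 49.9% and 54.6%. Counts for the runs and genes named below are read against these shares and are no result about them. CpGs of a run lie close together and can be covered by the same reads, so their calls are not independent.

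In 5 runs a MEF-2 line reached a mean of 40% or more, and these are named here after their values were seen. They lay in an exon of Zfp217, where the highest MEF-2 line was at 50.8%, in introns of Kcnh2 (42.3%), Vamp9 (41.0%) and the noncoding 2310058D17Rik near Trim11 (41.1%), and in a coding exon of Sult4a1 (40.1%). None of the 4 CpGs at Zfp217 and none of the 3 at Vamp9 were called between the families.

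The largest run lay at Traip, a ubiquitin ligase that acts at the replication machinery. It spanned chr9:107951001-107951300 in a 5′ untranslated, coding and intronic stretch 13 bp downstream of a transcript start, and held 21 CpGs. The MEF-1 lines had run means of 52.6, 56.5, 52.1, 39.9, 65.5, 41.7 and 45.6% in lines 1 to 7, and the MEF-2 lines 0.653, 1.11, 1.09, 2.39, 1.13, 1.33 and 2.99%. The highest MEF-2 line was far below the lowest MEF-1 line. All 21 CpGs were called higher in MEF-1 (11.6% of all CpGs) and were non-overlapping between the families (5.19% of all CpGs). Their adjusted p was between 1.73e-07 and 0.000113 (quasi-binomial F-test).

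The second run, of 12 CpGs at chr5:23712621-23712716 in the exon of AI506816, had a lowest MEF-1 line of 31.2%, a median of 51.5% and a highest of 58.9%, and MEF-2 lines from 0.617 to 2.63%. None of its CpGs had a called spread among MEF-1 lines. The fourth run, of 9 CpGs at chr2:75609633-75609826 outside genes, had a wider range in MEF-1, with a lowest line of 27.03%, a median of 53.5% and a highest of 72.8%, while MEF-2 was from 1.17 to 2.55%. A spread among MEF-1 lines was called at 4 of its 9 CpGs. All CpGs of both runs were called higher in MEF-1.

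Pax8, a paired-box transcription factor of thyroid and kidney, held 3 of the 8 largest runs. The run at chr2:24474067-24474206 (10 CpGs) had MEF-1 lines from 35.9 to 55.2% with a median of 44.4%, and MEF-2 lines from 0.385 to 3.69%. The run at chr2:24474230-24474305 (9 CpGs) had MEF-1 lines from 27.6 to 53.7% with a median of 43.6%, and MEF-2 lines from 0 to 2.22%. The run at chr2:24473641-24473799 (8 CpGs) had MEF-1 lines from 44.4 to 55.3% with a median of 51.1%, and MEF-2 lines from 0 to 7.79%. All lay in an exon of Pax8 that the noncoding Gm13415 overlaps, 792 to 1298 bp downstream of a transcript start. Every CpG of the 3 runs was called higher in MEF-1 and had no overlap between the families.

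A run of 9 CpGs at chr1:178317717-178317864 lay 1266 bp upstream of Cox20, which assists cytochrome c oxidase assembly, in an intron of the antisense B230369F24Rik. Its MEF-1 lines ranged from 21.5 to 57.5% with a median of 49.2%, its MEF-2 lines from 0.731 to 2.82%, and a spread among MEF-1 lines was called at all 9 CpGs. A run of 9 CpGs at chr8:121115201-121115270 lay 901 bp upstream of Foxc2, a forkhead factor of mesenchyme and lymphatic vessels. There the MEF-1 lines ranged from 17.0 to 44.3% with a median of 39.3%, and the MEF-2 lines from 0 to 15.6% with a median of 2.38%. All CpGs of both runs were called higher in MEF-1, and at the Foxc2 run 4 of 9 had no overlap between the families.

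**Figure D3:**
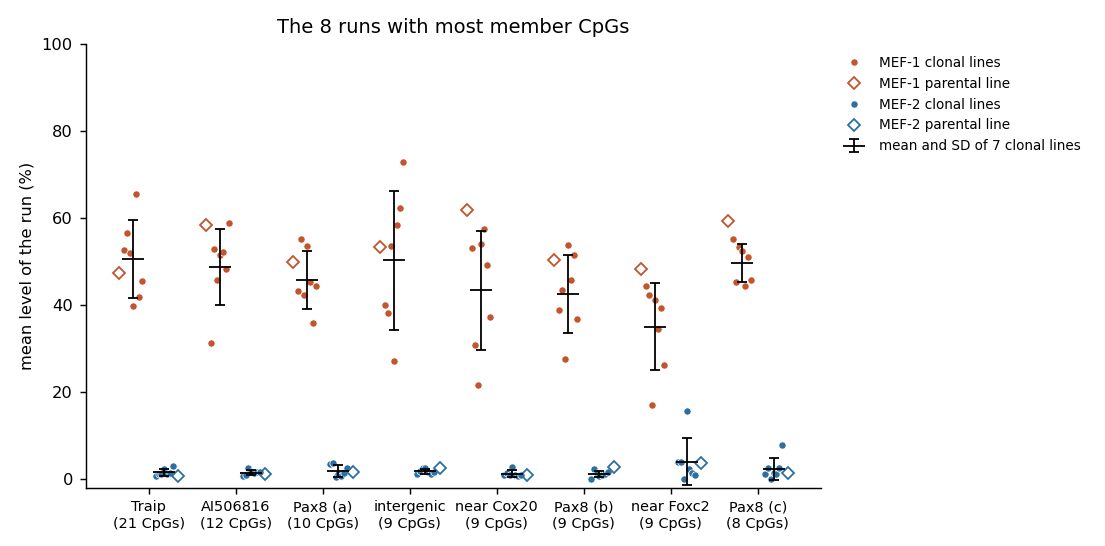
Mean methylation level (%, y axis) over the CpGs of the 8 largest runs (x axis). Filled points are single clonal lines, bars the mean and SD of 7 lines, and open diamonds the parental lines. At each run the 7 MEF-1 lines lie above the 7 MEF-2 lines, with the widest MEF-1 range, 27.03 to 72.8%, at the intergenic run and the highest MEF-2 line, 15.6%, near Foxc2.

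At Traip the selected CpGs formed a block with methylated CpGs on its upstream side. Within 3000 bp of its RefSeq start, the table held 65 CpGs, and all 36 selected ones lay between 373 and 974 bp downstream, in a stretch of 602 bp with 5 other CpGs. The 24 CpGs upstream of that stretch were at 82.0% in MEF-1 against 85.8% in MEF-2 clonal lines, with single CpGs from 22.3 to 98.6% and from 48.3 to 99.3%. Within the stretch, single selected CpGs had MEF-1 means from 41.6 to 97.5% and MEF-2 means from 0 to 11.5%. The 97.5% belonged to the last CpG, which is also the last of the Traip sequence printed above.

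At Pax8, the table held 57 CpGs in the same window and 33 were selected. They lay between 1216 and 1958 bp downstream of the start, in a stretch of 743 bp with 8 other CpGs, and had MEF-1 means from 29.3 to 55.8% and MEF-2 means from 0 to 4.55%. The 8 CpGs further upstream were of 2 kinds. The 6 between 1137 and 1211 bp, next to the stretch, had MEF-1 means from 7.79 to 44.03% and MEF-2 means from 0 to 2.80%, while the 2 beyond the start, at -1179 and -1218 bp, were from 97.8 to 99.8% in both families. Of the 8 further downstream, the 3 between 2003 and 2111 bp had MEF-1 means from 47.7 to 51.5% and MEF-2 means from 12.2 to 14.2%, and the 5 from 2761 bp on had means from 53.4 to 98.8% and from 35.4 to 92.8%.

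**Figure D4:**
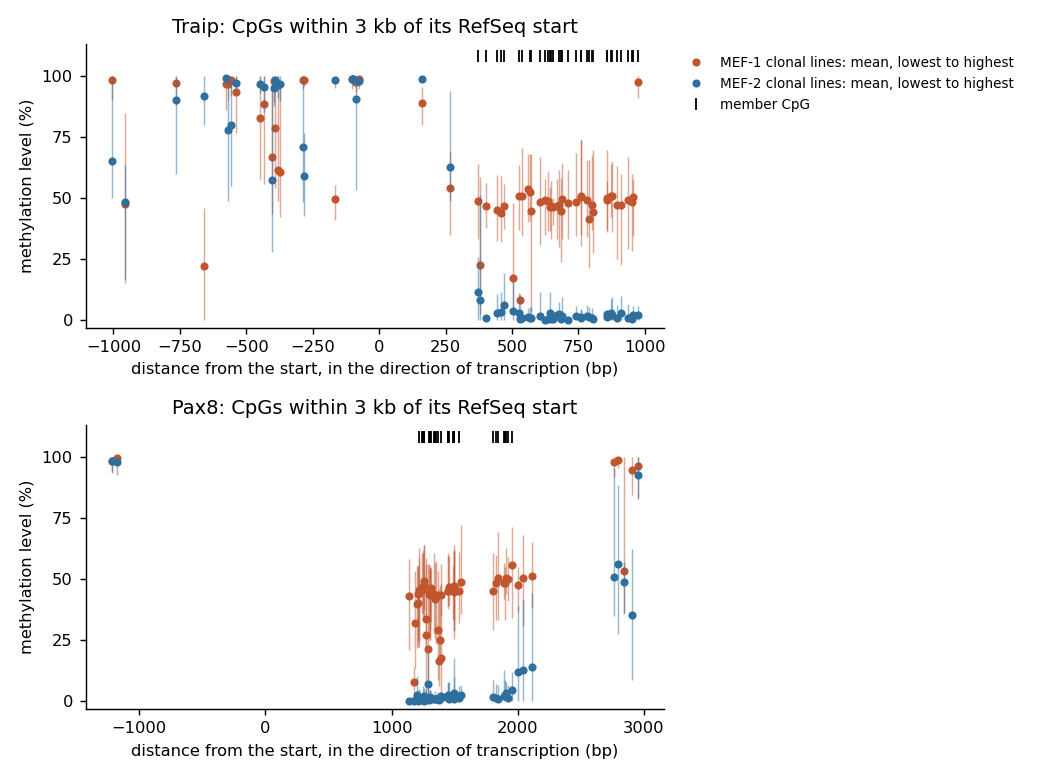
Methylation level (%, y axis) of each CpG against its distance from the RefSeq start (bp, x axis) at Traip (top) and Pax8 (bottom). Points are family means of 7 clonal lines, vertical lines run from the lowest to the highest line, and ticks mark the selected CpGs. The block of 36 selected CpGs at Traip lies between 373 and 974 bp, and that of 33 at Pax8 between 1216 and 1958 bp.

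The family difference was also tested over whole promoters, with the counts of all table CpGs in the 1000 bp before a transcript start summed. At least 3 selected CpGs lay in 192 of the 12032 promoters tested. Of these, 158 (82.3%) were called higher in MEF-1, against 25.4% of all promoters, and 1 was called higher in MEF-2, against 16.2% of all promoters. The median difference was 10.4 points (quartiles 5.40 and 17.4), against 0.443 points over all promoters. The exception, named after its values were seen, was Ebf2, a transcription factor of the fat lineage, of which 4 of 46 CpGs with 20 or more parental reads were selected. It was at 12.1% ± 1.37 in MEF-1 against 17.9% ± 2.77 in MEF-2 (SD, n = 7 each), with an adjusted p of 0.00137 from the quasi-binomial F-test over all promoters.

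In 3 of the named promoters, the set took from 7 of 14 to 11 of 16 of the CpGs with 20 or more parental reads. Nid1, which encodes the basement membrane protein nidogen, had 10 of 15 CpGs in the set. Its promoter was at 37.3, 43.9 and 53.5% in the lowest, median and highest MEF-1 line and at 1.66, 5.18 and 6.13% in MEF-2, a difference of 41.4 points (adjusted p = 1.86e-07, quasi-binomial F-test over all promoters). Foxc2 had 11 of 16 CpGs in the set and was at 14.2, 23.0 and 26.0% against 0.607, 1.72 and 8.77%, a difference of 18.6 points (adjusted p = 6.44e-05). Acat3, an acetyl-CoA acetyltransferase, had 7 of 14 and was at 39.2, 47.3 and 50.1% against 10.1, 20.3 and 23.6%, a difference of 26.7 points (adjusted p = 8.65e-06). The lines of the families did not overlap at these 3 promoters.

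In others the set was a smaller part of the promoter. Ndufa13, a subunit of respiratory complex I, had 14 of 56 CpGs in the set and was at 22.9% ± 4.04 in MEF-1 against 3.86% ± 1.51 in MEF-2 (SD, n = 7 each), with an adjusted p of 2.61e-06 from the quasi-binomial F-test fitted across all promoters. The zinc finger gene Zfp882 (12 of 34) was at 69.6% ± 4.38 and 52.8% ± 4.63, and the protocadherin Pcdh17 (8 of 52) at 32.3% ± 2.25 and 20.5% ± 3.59, both called. The Traip promoter (15 of 52) was at 72.9% ± 3.19 and 64.3% ± 2.92, a difference of 8.68 points that was called. Yjefn3 (10 of 59) was at 26.0% ± 2.50 and 21.4% ± 2.98. Its adjusted p was 0.0324, and its call was lost in the fit with the line number as a block (adjusted p = 0.0721 from the same test) and in 9 of 14 fits that left out 1 line (MEF-1 lines 1, 3, 4, 5 and 7 and MEF-2 lines 1, 3, 4 and 6), with differences from 4.02 to 4.59 points. It was also lost without MEF-1 lines 1, 4 and 5 together (3.95 points, adjusted p = 0.199 from the same test).

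Over genes, the set was thinly spread with a few concentrations. Of 15315 coding genes with a CpG of 20 or more parental reads in their transcripts or promoters, 5283 (34.5%) held at least 1 selected CpG, 3069 of them exactly 1, while 1035 (6.76%) held 3 or more and 53 held 10 or more. The gene model with most, Gm20388 (82 of 6456 CpGs), is a read-through annotation at chr8:119910841-124345722 that covers many other genes, and it also held 70 CpGs of the opposite set. Fgfr2, a fibroblast growth factor receptor, had 28 of 2411 in a long annotated extent at chr7:130162451-133123350, none of which lay within 1000 bp of its RefSeq gene span.

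Traip and Pax8 ranked directly after Gm20388 and ahead of Fgfr2, with 36 of 98 and 33 of 69 CpGs in the set. Over its 36 CpGs, Traip was at 39.6, 49.3 and 60.6% in the lowest, median and highest MEF-1 line and at 1.11, 1.79 and 3.16% in MEF-2. Pax8 was at 39.4, 46.7 and 53.1% against 0.7996, 1.45 and 3.70%. All selected CpGs of both genes were called higher in MEF-1, and neither gene held a CpG of the opposite set.

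Zfp560, a KRAB zinc finger gene, held 22 of 62 CpGs in the set around its start, from chr9:20384848 to chr9:20385453. Its MEF-1 lines were at 37.8, 45.8 and 52.7% (lowest, median and highest) and its MEF-2 lines at 0.798, 1.33 and 3.84%. The transcription factor gene Zic4 held 20 of 208, at 61.6, 72.8 and 75.3% against 1.05, 1.94 and 3.96% in MEF-2. All selected CpGs of Zfp560 and of Zic4 were called higher in MEF-1 without overlap between families.

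Gata3, a transcription factor of T cells and many epithelia, held 20 of 269, of which 15 lay within 1000 bp of its RefSeq span, and was at 55.9, 59.99 and 66.9% in the MEF-1 lines against 3.32, 9.49 and 11.8% in the MEF-2 lines. Skor1, a transcriptional corepressor, held 18 of 190 and was at 46.2, 50.3 and 56.7% against 1.62, 2.52 and 10.4%. The homeobox gene Hoxd3 held 24 of 307 and was at 49.5, 54.1 and 54.7% against 5.11, 7.05 and 11.2%. Of these, 20 CpGs at Gata3, 17 at Skor1 and 21 at Hoxd3 were called higher in MEF-1, beside 83.5% of the set and 11.6% of all CpGs. Hoxd3 also held 16 CpGs of the opposite set, Skor1 held 1 and Gata3 none.

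The remaining genes with most selected CpGs were Asic2 (20 of 352), an acid-sensing ion channel, Lmx1b (19 of 224), which sets dorsal identity in the limb, and Camta1 (19 of 687), a calmodulin-binding transcription activator of which 18 lay within 1000 bp of the RefSeq span. Asic2 was at 46.8, 53.8 and 61.1% in the MEF-1 lines, Lmx1b at 41.4, 48.0 and 51.3%, and Camta1 at 51.5, 57.1 and 61.3%. The highest MEF-2 line was at 7.02%, 11.7% and 10.6% in the same order. Of their selected CpGs, 20, 16 and 18 were called, and 7, 10 and 9 CpGs of these genes belonged to the opposite set.

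The share of CpGs in the set was also counted over 11 gene lists. Over all CpGs with 20 or more parental reads 1.37% belonged to the set and 1.22% to the opposite set. Transcription factors of the nervous system (3.51% of CpGs in the set, 2.67% in the opposite set), Hox genes (3.16% and 1.77%), limb and trunk patterning genes (3.04% and 1.32%) and genes of the blood lineages (2.89% and 1.49%) had the highest shares. Imprinted genes were at 1.73% and 0.793%, signalling ligands and receptors at 1.70% and 1.51%, and fibroblast matrix and identity genes at 1.39% and 1.13%. Senescence and immortalisation genes (1.09% and 0.928%), germline genes (1.02% and 1.22%), genes of skeletal muscle and skeleton (0.984% and 0.937%) and pluripotency genes (0.881% and 1.17%) were lowest. Some shares rest on 1 gene model, as counts without the model of most CpGs or of most selected CpGs in each list showed, which were added after the values were seen. Without Pax8, which held 33 of the 137 selected CpGs of the nervous system list, its share was 104 of 3833 (2.71%), with as many in the opposite set. Without Gata3, which held 20 of 66, the share of the blood lineage genes was 46 of 2017 (2.28%). The Hox genes were at 2.98% without Hoxd3 and the limb and trunk genes at 2.75% without Zic4. Without the long Fgfr2 extent, the share of the signalling genes was 87 of 4339 (2.01%), and without Tnxb that of the fibroblast genes was 8 of 1346 (0.594%). These shares are counts with no test, the CpGs of a gene are not independent, and some genes stand in 2 lists.

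**Figure D5:**
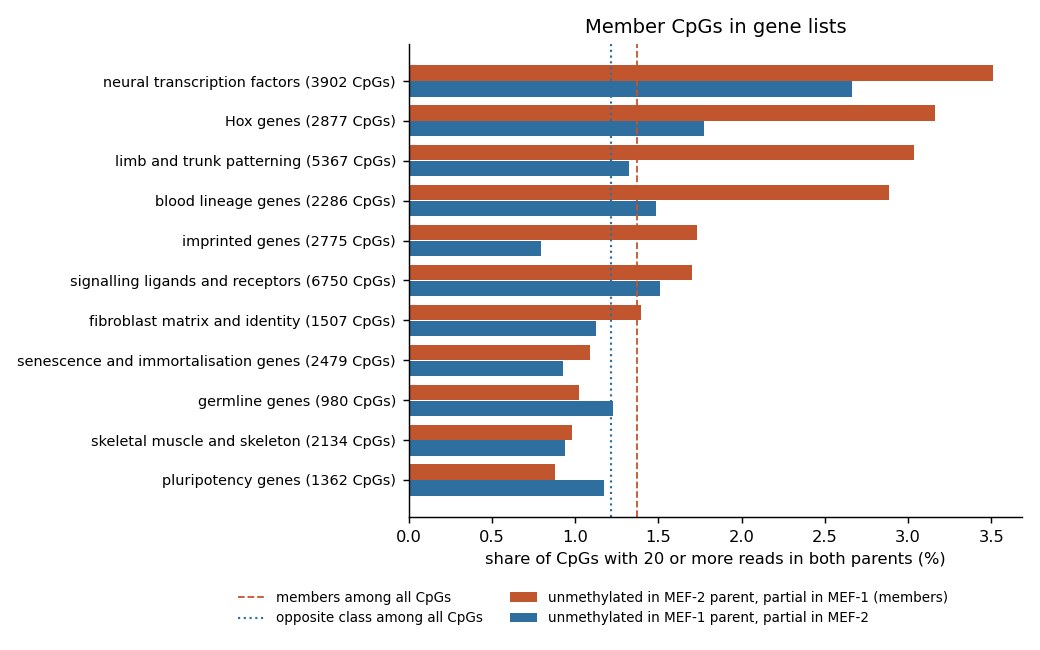
Share (%, x axis) of the CpGs with 20 or more parental reads in 11 gene lists (y axis, number of such CpGs in brackets) that belonged to the selected set and to the opposite set, as bars from 0. Vertical lines give the same shares over all CpGs, 1.37% and 1.22%. The 4 longest bars of the selected set, 2.89 to 3.51%, are those of neural (2.71% without Pax8), Hox, limb and trunk, and blood lineage genes (2.28% without Gata3).

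Of the 38 Hox genes measured, which set position along the body axis, 22 held a selected CpG and 16 held 3 or more, and 82 of the 91 CpGs were called higher in MEF-1. Over all genes measured 34.5% held a selected CpG and 6.76% held 3 or more, and over the whole set 83.5% of CpGs were called higher in MEF-1, against 11.6% of all CpGs, so the called shares in this and the following lists are read against these values and are no result about the lists. Hox gene models overlap each other, and of the 14 CpGs counted for Hoxc5 only 2 lay within 1000 bp of its RefSeq span, as did 9 of 12 for Hoxd4. Hoxa3 held 8 selected CpGs, at 32.3, 43.3 and 49.1% in the lowest, median and highest MEF-1 line and at 1.56, 2.44 and 6.00% in MEF-2. All 8 were called.

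Of 62 limb and trunk patterning genes, 33 held a selected CpG and 20 held 3 or more, with 145 of 163 CpGs called higher in MEF-1. Zic1, the neighbour of Zic4, held 13 of 61 CpGs, at 46.3, 54.2 and 58.7% in the MEF-1 lines and 0.415, 1.44 and 2.96% in the MEF-2 lines, all called and without overlap. The LIM homeobox gene Lhx2 held 14 and was at 43.0, 54.6 and 59.8% against 2.53, 8.23 and 12.98%, with 11 called.

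Of 48 neural transcription factor genes, 35 held a selected CpG and 14 held 3 or more, with 115 of 137 CpGs called. After Pax8, the gene with the next largest number was Pax6, the eye and forebrain regulator. Its 14 selected CpGs were at 55.8, 58.1 and 66.3% in MEF-1 and 3.83, 10.3 and 12.1% in MEF-2, with 12 called. Isl2 held 9 selected CpGs with 8 called, and Lhx4 held 8 with 6 called. Isl2 also held 7 CpGs of the opposite set.

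Of 29 blood lineage genes, 16 held a selected CpG and 6 held 3 or more, with 55 of 66 called. Gata3, described above, held 20 of the 66, of which 15 lay within 1000 bp of its RefSeq span. Runx1, a factor needed for blood stem cells that also stands in the skeletal list, held 8 at 63.0, 67.8 and 79.0% in MEF-1 and 0.915, 2.38 and 3.43% in MEF-2, and all 8 were called. Ikzf1, a lymphoid regulator, held 8 at 39.5, 49.8 and 59.8% against 1.13, 8.91 and 18.01%, of which 4 were called. Lmo2 and Tal1 held 7 each, with 4 and 7 called.

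Of 70 signalling genes, 32 held a selected CpG and 12 held 3 or more, with 99 of 115 called. Apart from the long Fgfr2 annotation, the secreted ligand gene Wnt6 held most, with 17 of 125 CpGs at 61.6, 70.04 and 72.4% in the MEF-1 lines and 1.898, 4.10 and 6.66% in the MEF-2 lines, all 17 called. The receptor gene Notch3 held 8, at 53.5, 62.2 and 64.8% against 3.18, 6.54 and 16.3%, with 7 called. Wnt7b held 6, all called, with MEF-1 lines from 54.7 to 65.8% and MEF-2 lines from 1.89 to 20.1%.

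Of 31 imprinted genes, whose expression depends on the parent of origin, 19 held a selected CpG and 9 held 3 or more, with 40 of 48 called. Sfmbt2, Usp29 and Kcnq1 held 5 each. Usp29 had the wider MEF-1 range, at 28.5, 54.5 and 77.6% against 4.60, 9.05 and 16.3% in MEF-2, while Sfmbt2 was at 42.3, 47.1 and 52.6% against 3.07, 5.36 and 16.7%. Igf2, a fetal growth factor, held 3, at 49.4, 54.6 and 71.7% against 0, 1.19 and 12.3%, all called.

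The other lists held few. Fibroblast matrix and identity genes held 21 selected CpGs, of which 13 were in Tnxb, an extracellular matrix gene, and 13 of the 21 were called. Tnxb was at 34.6, 48.7 and 52.0% in MEF-1 and 5.74, 11.6 and 16.6% in MEF-2. Senescence and immortalisation genes held 27 with 24 called, including 6 in Trp73, a relative of p53, and 4 in Mdm2, the ubiquitin ligase of p53. Mdm2 was at 43.7, 63.8 and 70.4% against 1.61, 3.29 and 13.6%. Skeletal muscle and skeleton genes held 21 with 18 called, germline genes 10 with 8 called and pluripotency genes 12 with 9 called.

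At a few of the selected CpGs, the MEF-1 clonal lines were almost fully methylated while the parental level was under 90%. The CpG with the largest difference, chr16:92698630 in an intron of Runx1 and 1302 bp upstream of a transcript start, was at 100% in 6 MEF-1 lines and at 97.4% in line 3, and at 0 to 4.17% in the MEF-2 lines. The difference was 98.1 points (adjusted p = 5.22e-08, quasi-binomial F-test). The MEF-1 parent had been at 82.9% (41 reads, 95% Wilson interval 68.7 to 91.5%), so its counting error reaches past 90%.

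The next were chr1:74784347 in a coding exon of Wnt6, at 95.7 to 100% in MEF-1 and 0 to 4.00% in MEF-2 lines, and chr8:102785696, 54 bp upstream of Cdh11, a cadherin of mesenchymal cells, at 93.9 to 100% and 0 to 5.13%. Their differences were 97.5 points (adjusted p = 7.87e-08, quasi-binomial F-test) and 97.3 points (adjusted p = 3.94e-08). The fourth, chr16:29883055, lay outside genes at 181328 bp from Hes1, at 96.2 to 100% and 0 to 8.33%. The MEF-1 parent was at 87.5% at the Wnt6 CpG (24 reads, 95% Wilson interval 69.0 to 95.7%), at 89.7% at the Cdh11 CpG (39 reads, 76.4 to 95.9%) and at 75.0% at the fourth (36 reads, 58.9 to 86.2%). At Cdh11, which is named here after its values were seen, all 6 table CpGs of the promoter were in the set and the promoter was at 85.4% ± 3.14 in MEF-1 against 2.56% ± 1.32 in MEF-2 (SD, n = 7 each).

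The CpGs with the lowest difference had high levels in some MEF-2 lines. At chr9:31131780, in the untranslated exon of St14 and 15 bp downstream of its start, the MEF-2 lines 1 to 7 were at 100, 6.25, 80, 13.3, 69.2, 6.45 and 0%, and the MEF-1 lines at 33.3, 18.2, 0, 6.67, 0, 35.3 and 0%. The families overlapped and did not pass the test (difference -26.0 points, adjusted p = 0.370, quasi-binomial F-test). With 1 line left out, the difference was from -32.5 to -15.9 points, the last without MEF-2 line 1, and it was not called in any of these 14 fits. At chr3:26834613, in an intron of Spata16, the MEF-2 lines were at 51.9, 42.9, 7.89, 15.6, 44.4, 1.39 and 48.6%, and the MEF-1 lines from 0 to 13.3%, a difference of -25.1 points (adjusted p = 0.0315). This call was lost with the line number as a block (adjusted p = 0.126, same test) and in 9 of 14 fits that left out 1 line (MEF-1 lines 1, 4, 5, 6 and 7 and MEF-2 lines 1, 2, 5 and 7), with differences from -25.4 to -21.5 points. It was also lost without MEF-1 lines 1, 4 and 5 together (-21.5 points, adjusted p = 0.232, same test).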

How the data were processed

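tcBS-seq libraries of the MEF-1 and MEF-2 parental lines (1 each) and of 7 clonal lines of each family were used, grouped by their labels. According to the submitters' processing notes and the methods of the study, the authors used Trim Galore 0.6.0 for trimming, Bismark for alignment against mm10, a mapping quality minimum of 10 and R 3.6.1. Whether PCR copies were removed is not given in the sources used here. The deposited values are counts of methylated and unmethylated reads per CpG that the authors merged over both strands, with no normalization. The table of the series holds CpGs that every one of the 16 libraries covered with 10 or more reads, and its 2 further columns per sample (coverage and level) were not used.

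Levels, densities and locations (GENCODE and RefSeq annotation of GRCm38) were computed with Python 3.11.15, numpy 2.4.6 and scipy 1.17.1. Levels of a set, run or gene are means over CpGs with equal weight, and promoters use summed counts. Families were compared per CpG and per promoter (at least 3 table CpGs) by a quasi-binomial F-test with 1 and 12 degrees of freedom and a dispersion of at least 1, and the spread among the 7 lines of a family by a Pearson chi-square test. Benjamini-Hochberg adjustment ran over all CpGs or promoters, and calls had an adjusted p under 0.05. Both tests were tested on simulated data. The alternative test was limma 3.58.1 (R 4.3.3) on log2 ratios of the counts.

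The selected CpGs, gene lists and tests were chosen with earlier results of these data known. Named were the 8 runs, 12 genes and 8 promoters with most selected CpGs, the 4 CpGs of largest and 2 of lowest family difference, and list genes with 3 or more selected CpGs. The CpGs of largest and lowest difference were picked by the same clonal counts that gave their p-values. Line numbers shared by the families were checked for pairing: the correlations of deviations between lines of the same number were between -0.00432 and 0.00353, so they only name lines. Parental libraries entered no test.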

Additional observations from a re-analysis of the deposited data

Results flagged for a closer look

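Of 80 sets of 7 clonal lines examined, 11 had a line standing apart from the other 6 by the Dixon criterion, which chance meets in about 1 of 20 sets of values that vary continuously. That rate does not hold for single CpGs with most lines at 100 or 0%. None of these was weighed for a cause.

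Several lay in MEF-2 line 4. At the run near Foxc2 it was at 15.6%, with the next line at 3.95%, and at the Foxc2 promoter at 8.77%, with the next at 3.19%. The promoter and the run share CpGs. The same line was at 2.82% at the run near Cox20, with the next at 1.47%, and at 8.33% at the CpG chr16:29883055, with the next at 3.33%. Over the 7 MEF-2 lines, 4 of 223 reads at this CpG were methylated, so these values rest on few reads.

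MEF-2 line 3 had 2.14% of the selected CpGs from 40 to under 60%, against 4.45 to 5.02% in the other lines, and was at 3.84% over the selected CpGs of Zfp560, with the next at 1.55%. MEF-2 line 1 was at 10.4% over those of Skor1, with the next at 4.87%, and at 5.13% at the CpG chr8:102785696 near Cdh11, with the next at 2.04%. At that CpG 4 of 282 reads were methylated over the 7 MEF-2 lines, so the values there also rest on few reads. MEF-2 line 7 was at 7.79% at the Pax8 run of 8 CpGs, with the next at 2.58%.

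MEF-1 line 3 was at 97.4% at the Runx1 CpG chr16:92698630 and at 95.7% at the Wnt6 CpG chr1:74784347, where the other 6 lines were at 100%. Over the 7 lines, 186 of 187 and 147 of 148 reads were methylated there, so each value rests on a single unmethylated read.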

How the results depend on the processing

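Of 152 recomputed summary values 133 stayed within 1.5 times the main value (counts and called shares) or within 1 SD or interval of it. Within that bound the MEF-1 spread share still went from 49.9 to 35.7% without MEF-1 lines 1, 4 and 5. The share of selected CpGs called between the families (83.6%) was from 66.2 (without MEF-1 lines 1, 4 and 5) to 90.4% (limma) under the alternatives and from 78.9 to 81.4% with 1 line left out, where 14.1, 22.4 and 18.3 to 19.3% of all CpGs were called, and that of promoters (82.8%, either direction) from 75 to 82.8% and from 80.2 to 84.4%. With the replicate block (the line number as a block) these were 74.5% and 79.7%, and the block also ended the calls of the Yjefn3 promoter and of chr3:26834613, and no other call among the 8 promoters and 6 CpGs named by rule. The Kbtbd12 CpG and the Ebf2 and Cdh11 promoters were not refitted with the block. Thinning to 10 reads lowered the called spread from 49.9 to 12.98% in MEF-1 and from 46.7 to 22.2% in MEF-2, so these shares depend on depth. Leaving out 1 line gave 42.8 to 47.5% and 40.8 to 43.1%. That setting changes the number of lines and not the reads per CpG, so it says nothing about depth.

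The choice of CpGs moved other values. With a MEF-2 parental level under 5%, 7264 CpGs and 98 runs (main 14565 and 243) were found, the MEF-2 clonal mean was 5.97% (main 7.54%), the share under or at 10% in MEF-2 86.3% (main 81.97%), the promoter share 21.8% (main 20.03%) and the density 5.54 (main 5.19). A MEF-1 parental level from 50 to under 80% gave 7385 CpGs and 78 runs. With 20 reads in all 16 libraries the MEF-2 mean was 6.96%, the share at or under 10% 84.6%, the promoter share 20.95% and the density 4.48. With 30 reads in both parents the share at or under 10% in MEF-2 was 83.5% and the density 4.74. The promoter share was 19.1% on chromosomes 3, 4, 6 and 9 and 21.6% with a window of 500 bp to either side, and the density within 50 bp was 2.57. The cause of these moves was not tested, apart from the smaller windows and sets themselves.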
